A study of Mus musculus with 12 samples.

Results

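The Id proteins Id1, Id2, Id3 and Id4, the bHLH factor Atoh8 and the repressors Hey1 and Hes1 were followed in mouse gastrocnemius, a calf muscle, with and without its nerve supply and with and without Smad4. The 7 genes were taken by gene name from the probe annotation of the arrays, which held 27597 genes or names in all, and all 7 were among the 15233 genes tested. Total RNA of whole muscle of adult male CD1 mice was hybridised to 12 one-colour Agilent arrays in 4 groups of 3: Smad4 knockout (KO) muscle 14 days after denervation, KO control muscle, wild-type (WT) muscle 14 days after denervation, and WT control muscle. Per the labels, each condition was studied in 3 separate experiments on different animals. Neither the promoter or cell type that drives the deletion, the exons removed, the way of denervation, nor whether a numbered control and denervated muscle are of 1 animal is given there.

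Bone morphogenetic proteins (BMPs) bind paired serine-threonine kinase receptors, which phosphorylate Smad1, Smad5 and Smad9. These Smads bind Smad4, enter the nucleus and activate genes of which the Id genes are the classical examples. Id proteins have a helix-loop-helix domain but no DNA-binding region, so they hold E proteins such as Tcf12 in dimers that cannot bind DNA and thereby restrain myogenic bHLH factors such as Myod1 and Myog. Hey1 and Hes1 are bHLH repressors that the Notch pathway induces, and BMP signalling can raise Hey1 in endothelial cells. Atoh8 is a bHLH factor that BMP signalling induces in liver.

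In denervated muscle, Id2, Id3 and Atoh8 were lower without Smad4 than with it, whereas no member differed between KO and WT in control muscle. Denervation raised Id2 in both genotypes, by 1.75 ± 0.33 on the log2 scale in KO muscle and by 3.65 ± 0.33 in WT muscle (difference ± SE, 3 arrays per group). Atoh8 rose by 2.13 ± 0.33 with denervation in WT muscle, and in KO muscle its difference was -0.09 ± 0.33. Hey1 fell with denervation by 1.04 ± 0.19 in KO muscle and by 1.06 ± 0.19 in WT muscle. The difference between the responses of KO and WT muscle, tested as an interaction, passed the threshold for none of the 7 genes.

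The 250 bases before the gene start in RefSeq (build GRCm38.p6, letters of the gene's own strand, 5′ to 3′) are shown for the members that differed between genotypes in denervated muscle, Id2, Id3 and Atoh8, and for Id4, which did not pass that test. Of the 7 members, 4 had an entry. Capitals mark every match to GGCGCC, a palindrome known as a BMP-Smad element of Id promoters; to CAGAC or its reverse complement GTCTG, the Smad-binding letters; and to CANNTG, the E-box that bHLH dimers bind.
Id2 promoter, chr12:25096093-25096342, minus strand: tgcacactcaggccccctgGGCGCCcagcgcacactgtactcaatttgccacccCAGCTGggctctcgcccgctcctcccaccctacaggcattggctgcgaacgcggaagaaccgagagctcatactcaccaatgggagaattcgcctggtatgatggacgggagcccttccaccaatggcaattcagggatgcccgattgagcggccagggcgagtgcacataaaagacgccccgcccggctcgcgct
Id3 promoter, chr4:136143572-136143821, plus strand: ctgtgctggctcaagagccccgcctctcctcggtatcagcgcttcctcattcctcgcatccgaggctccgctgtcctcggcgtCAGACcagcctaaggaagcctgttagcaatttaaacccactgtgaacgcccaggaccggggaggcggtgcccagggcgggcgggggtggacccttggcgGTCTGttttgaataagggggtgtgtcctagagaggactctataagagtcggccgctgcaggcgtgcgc
Atoh8 promoter, chr6:72235578-72235827, minus strand: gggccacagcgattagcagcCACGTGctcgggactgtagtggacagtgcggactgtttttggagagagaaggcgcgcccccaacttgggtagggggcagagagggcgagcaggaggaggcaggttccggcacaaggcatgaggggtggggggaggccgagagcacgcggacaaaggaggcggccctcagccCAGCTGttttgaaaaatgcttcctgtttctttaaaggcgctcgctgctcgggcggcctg
Id4 promoter, chr13:48260866-48261115, plus strand: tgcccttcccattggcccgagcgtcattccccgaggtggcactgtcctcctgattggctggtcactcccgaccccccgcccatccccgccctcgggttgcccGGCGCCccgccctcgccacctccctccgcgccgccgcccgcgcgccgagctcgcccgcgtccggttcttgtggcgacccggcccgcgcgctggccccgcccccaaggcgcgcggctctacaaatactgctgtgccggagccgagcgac
Id2 held GGCGCC 231 bases and an E-box 196 bases before the start, each position being that of the match's first base. Id3 held the Smad-binding letters at 167 and 68 bases before it, and neither of the other motifs. Atoh8 held 2 E-boxes, 230 and 59 bases before its start, and Id4 held GGCGCC at 148 bases. Both strands were searched, and no marked match overlapped another. Of the 32851 promoters of the same length, 9.59% held GGCGCC, 42.2% held CAGAC or GTCTG and 66.2% held CANNTG. The matches describe the letters of these windows and are not evidence of binding, and a motif not found in them says nothing about the factor.

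Values below are log2 signal minus the 75th percentile of the same array, so that 1 unit is a 2-fold change and 0 is the 75th percentile; they order groups within a gene and not genes against each other. Each array held 41174 probes, and the 75th percentile lay between 226 and 383 intensity units. All 10 probes of the members were well above background on all 12 arrays. Differences were tested with limma on all 12 arrays and p-values adjusted over the genes tested. Smad4, the deleted gene, averaged 1.83 ± 0.15 in KO denervated, 2.26 ± 0.13 in KO control, 3.26 ± 0.17 in WT denervated and 3.71 ± 0.21 in WT control muscle (SD, n = 3 each). It was 2.70-fold lower in KO than in WT denervated muscle (limma adjusted p = 0.00159) and 2.74-fold lower in KO than in WT control muscle (adjusted p = 0.0218), and the second call was lost under 13 of 22 alternatives. With normexp correction the differences were -1.24 (adjusted p = 0.148) in denervated and -1.35 (adjusted p = 1) in control muscle, against -1.43 and -1.45 without it, and over all 22 alternatives the control difference lay between -1.55 and -1.34. Since the deleted exons are not given, it is not known whether its probe lies inside them. Of 12 skeletal muscle markers, 11 were well above background on every array.

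**Figure D1:**
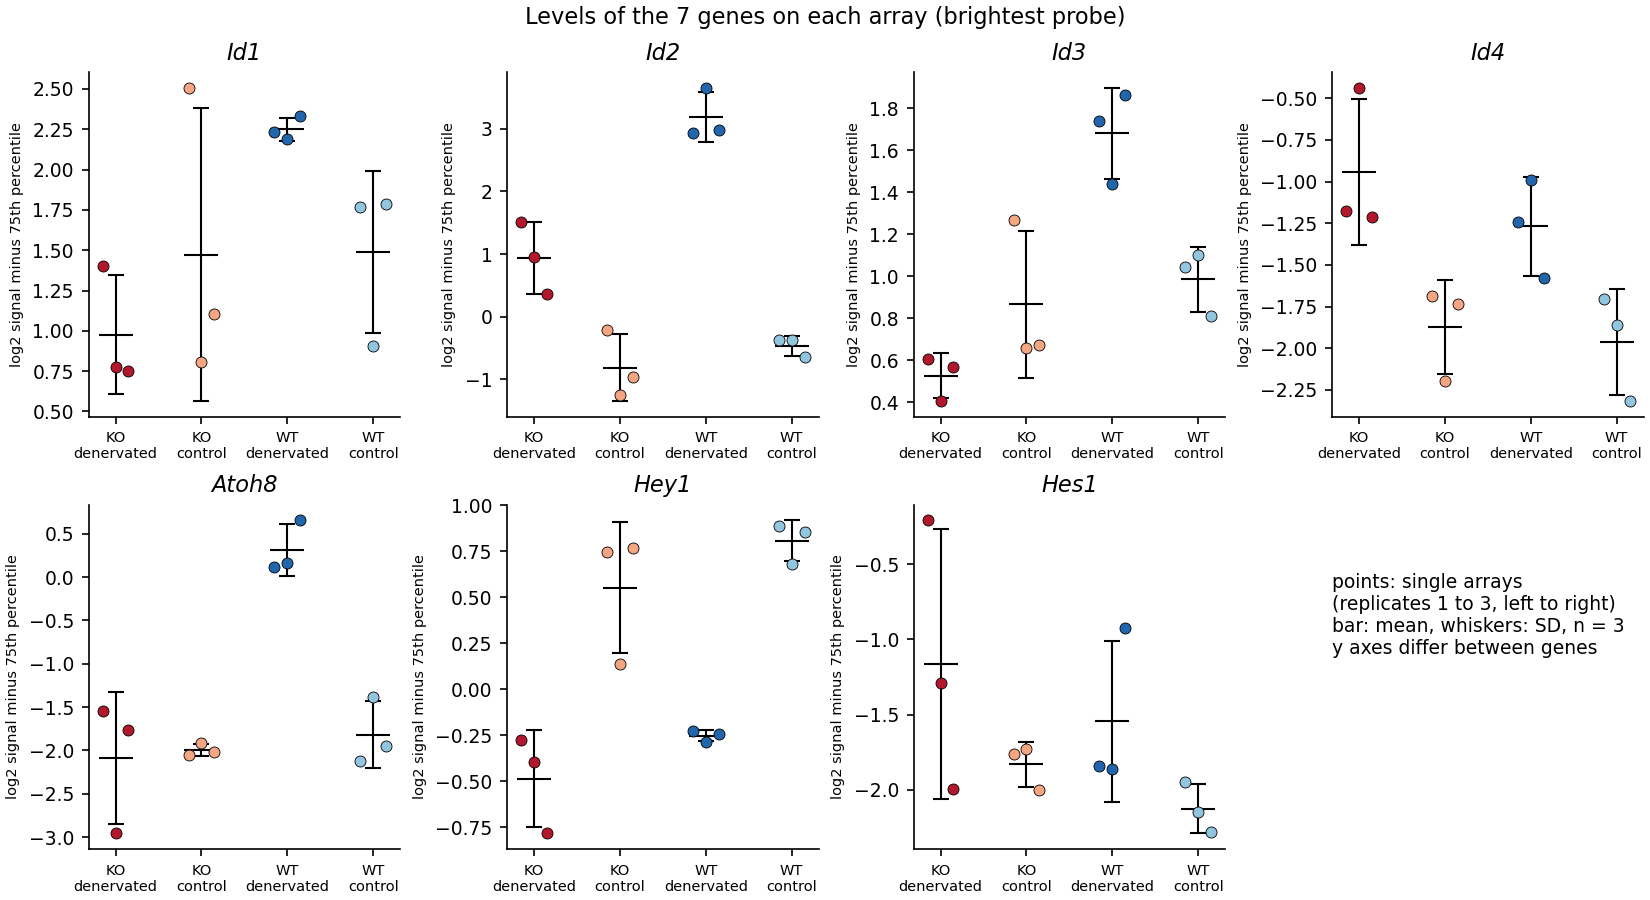
Level of each gene on each array, as log2 signal relative to the 75th percentile of its array, in KO denervated, KO control, WT denervated and WT control muscle. Points are arrays, bars are means and whiskers are SD (n = 3). The WT denervated arrays of Id2 (2.93 to 3.65) and Atoh8 (0.11 to 0.66) lie above all other arrays of those genes, and the denervated arrays of Hey1 lie below its control arrays in both genotypes.

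Id2, measured by a probe at chr12:25683119-25683178 (mm8, minus strand), changed most clearly with both nerve supply and genotype. Its levels were 1.50, 0.96 and 0.36 in KO denervated muscle and -0.22, -1.25 and -0.96 in KO control muscle. In WT muscle they were 2.93, 3.65 and 2.98 after denervation and -0.37, -0.37 and -0.65 in controls. The denervated arrays of each genotype therefore lay above the control arrays, and the KO denervated arrays lay below the WT denervated ones. The denervation difference was 1.75 (limma adjusted p = 0.00125, 3.37-fold) in KO muscle. In WT muscle it was 3.65 (adjusted p = 1.1e-05, 12.5-fold). Between the genotypes in denervated muscle, Id2 was 4.75-fold lower in KO (-2.25 ± 0.33, 95% interval -2.96 to -1.53, adjusted p = 0.00545). The response of KO muscle was smaller than that of WT muscle by 1.90 ± 0.46, with an unadjusted p of 0.00168 and an adjusted p of 0.162, so the difference of the responses was not past the threshold. By mean level the order was WT denervated, KO denervated, WT control, KO control, and the arrays of the last pair overlapped.

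The KO to WT difference of Id2 in denervated muscle was -1.43 on slide 1 and -2.36 on slide 4, the slides that held both groups. Within slides 3 and 4 the KO denervation difference was 1.32 and 1.17, and within slide 1 the WT difference was 3.30. Normexp background correction, an alternative, subtracts the local background of each spot, fits a model to the remainder over the whole array and adds 50. With this correction, the KO to WT difference of Id2 in denervated muscle was -1.89 (limma adjusted p = 0.0552). The second Id2 probe, at chr12:25684398-25684745, gave a smaller difference between KO and WT denervated muscle, -1.73, and denervation differences of 1.47 in KO and 2.95 in WT muscle. On slide 1 the genotypes were close on this probe, 0.92 in KO and 1.08 in WT denervated muscle. On slide 4 it gave 0.02 in KO and 2.67 and 2.16 in WT denervated muscle.

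Atoh8, read by a probe at chr6:72136331-72136390 (mm8, minus strand), was at -1.55, -2.96 and -1.76 in KO denervated muscle and at -2.05, -1.91 and -2.02 in KO control muscle. WT denervated muscle gave 0.11, 0.16 and 0.66, and WT control muscle -2.12, -1.39 and -1.95. The WT denervated arrays stood above the 9 others, while the KO denervated arrays spread around the KO controls. Denervation raised Atoh8 4.37-fold in WT muscle (2.13, limma adjusted p = 0.000509). In KO muscle the difference was -0.09 with a 95% interval of -0.82 to 0.63 (adjusted p = 0.833). The gene was 5.28-fold lower in KO than in WT denervated muscle (-2.40 ± 0.33, adjusted p = 0.0038). The responses differed by -2.22 ± 0.47 between KO and WT, with an unadjusted p of 0.000563 and an adjusted p of 0.113. KO denervated replicate 2 was the lowest array: without it the KO denervation difference was 0.34 (adjusted p = 0.277), positive instead of negative. Normexp correction gave -1.28 between KO and WT denervated muscle, with an adjusted p of 0.126, and 1.16 for denervation in WT muscle, which was still called (adjusted p = 0.0111). Within slides 1 and 4 the KO to WT difference in denervated muscle was -1.66 and -3.37, and the denervation difference was 0.26 and -0.91 within slides 3 and 4 in KO and 2.23 within slide 1 in WT muscle.

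Id3 (probe at chr4:135416236-135416410, mm8, plus strand) moved over a narrower range. The levels were 0.61, 0.41 and 0.57 in KO denervated muscle and 1.27, 0.66 and 0.67 in KO control muscle. In WT muscle they were 1.74, 1.44 and 1.86 after denervation and 1.04, 1.10 and 0.81 in controls. The 3 KO denervated arrays were the lowest of the 12 and the 3 WT denervated arrays the highest. Denervation raised Id3 1.62-fold in WT muscle (0.70 ± 0.19, limma adjusted p = 0.0132), whereas KO muscle gave -0.34 ± 0.19 (adjusted p = 0.16), with denervated and control arrays apart but close. In denervated muscle Id3 was 2.23-fold lower in KO than in WT (-1.15 ± 0.19, adjusted p = 0.00952). The difference of the responses was -1.03 ± 0.27 (adjusted p = 0.186). The call in WT muscle was lost with normexp correction (0.43, adjusted p = 0.288), when WT control replicate 3 was left out (adjusted p = 0.0512) and with a slide block (adjusted p = 0.114). The KO to WT call was lost with normexp correction (-0.82, adjusted p = 0.371), and slides 1 and 4 gave -1.13 and -1.25. Within slides 3 and 4 the KO denervation difference was -0.10 and -0.86, and within slide 1 the WT difference was 0.70.

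Id1, the Id gene most used as a readout of BMP signalling, passed no test, and its control arrays were widely spread. Its probe at chr2:152428751-152428810 (mm8, plus strand) gave 1.40, 0.77 and 0.75 in KO denervated muscle and 2.51, 0.81 and 1.10 in KO control muscle. WT muscle gave 2.23, 2.19 and 2.33 after denervation and 1.77, 0.91 and 1.79 in controls. The WT denervated arrays lay above the WT control and the KO denervated arrays, but KO control replicate 1 was the highest of all 12. The difference between KO and WT denervated muscle was -1.27 ± 0.40 (limma adjusted p = 0.139), and without KO control replicate 1, which also enters the shared estimate of spread, its adjusted p was 0.0351. Within slides 1 and 4 it was -0.83 and -1.49. For denervation in WT muscle the difference was 0.76 ± 0.40 (adjusted p = 0.151). That comparison passed with the replicate number as a block (adjusted p = 0.0462) and without KO control replicate 1 (adjusted p = 0.04), and shrank to 0.16 with a slide block. Within slide 1 it was 0.47. In KO muscle the denervation difference was -0.50 ± 0.40 (adjusted p = 0.326), -0.89 with a slide block (adjusted p = 0.0411), and 0.02 without KO control replicate 1. Within slides 3 and 4 that KO difference was -0.35 and -1.73. The responses differed by -1.26 ± 0.56 between genotypes (adjusted p = 0.51).

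Id4, whose probe lies at chr13:48275236-48275295 (mm8, plus strand), rose with denervation in KO muscle. It stood at -1.18, -0.44 and -1.21 in KO denervated muscle, against -1.69, -2.20 and -1.73 in KO control muscle. WT denervated muscle gave -1.24, -0.99 and -1.58, against -1.70, -1.86 and -2.32 in WT control muscle. Denervated arrays lay above control arrays in both genotypes, and the genotypes overlapped in each condition. The KO difference was 0.93 ± 0.26 (1.91-fold, limma adjusted p = 0.012). It was 0.60 with an adjusted p of 0.0725 after normexp correction. The WT difference was 0.69 ± 0.26 (adjusted p = 0.0524), at the edge of the threshold, with adjusted p-values between 0.0282 and 0.367 over the alternatives. Between KO and WT denervated muscle the difference was 0.33, with a 95% interval of -0.24 to 0.89. The responses differed by 0.24 ± 0.36 (adjusted p = 0.883). Within slides 3 and 4 the KO denervation difference was 0.52 and 1.25, and within slide 1 the WT difference was 0.46. The second Id4 probe gave smaller denervation differences, 0.60 in KO and 0.21 in WT muscle.

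**Figure D2:**
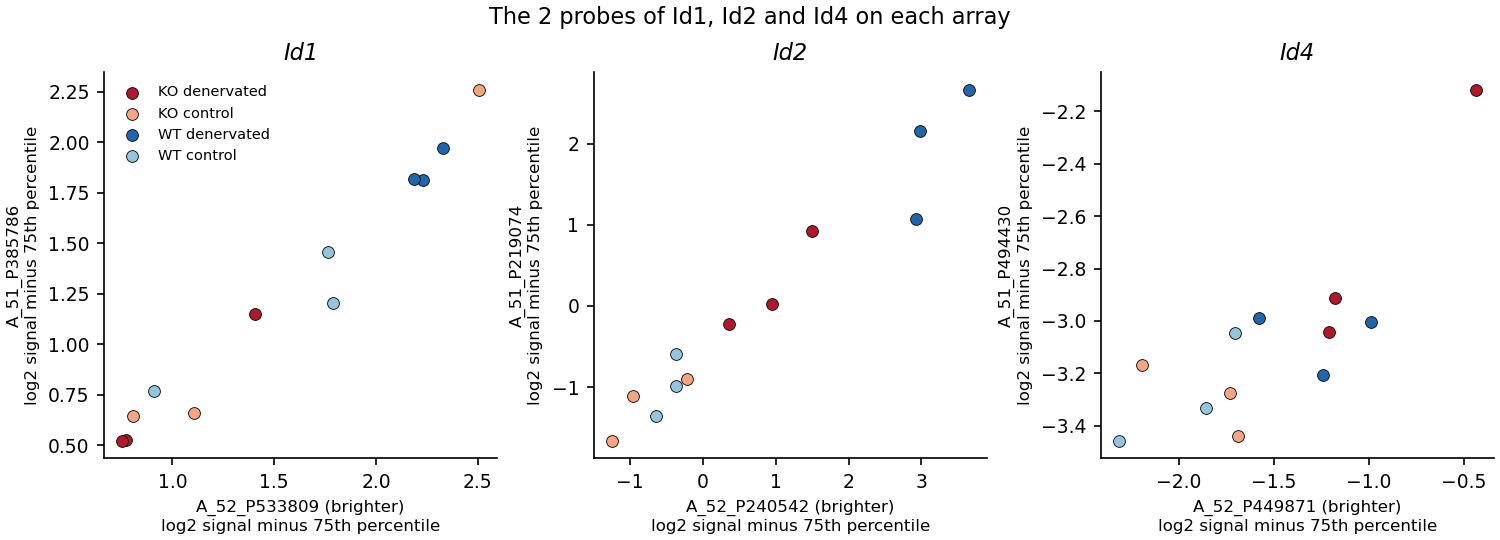
Log2 signal relative to the 75th percentile of the array for the brighter probe (horizontal) and the other probe (vertical) of Id1, Id2 and Id4; each point is 1 array, coloured by group. The Id1 and Id2 probes order the arrays nearly alike, and the Id4 probes agree less among the dim arrays.

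The overlapping second probe of Id1 gave differences close to the first: -1.14 between KO and WT denervated muscle, -0.45 for denervation in KO muscle and 0.73 in WT muscle. The plot of paired probes shows the same high KO control array on both Id1 probes.

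Hey1 (probe at chr3:8646505-8646564, mm8, minus strand) was the member that fell with denervation, and it fell in both genotypes. Levels were -0.28, -0.39 and -0.78 in KO denervated muscle and 0.75, 0.14 and 0.77 in KO control muscle. In WT muscle they were -0.23, -0.28 and -0.24 after denervation and 0.89, 0.68 and 0.85 in controls. All 6 denervated arrays lay below all 6 control arrays, and KO and WT arrays overlapped in each condition. Hey1 was 2.05-fold lower after denervation in KO muscle (-1.04 ± 0.19, limma adjusted p = 0.00113) and 2.08-fold lower in WT muscle (-1.06 ± 0.19, adjusted p = 0.0013). Both calls held under each alternative run, with differences from -1.24 to -0.81 in KO and from -1.28 to -0.92 in WT muscle. Within slides 3 and 4 the KO difference was -1.55 and -1.14, and within slide 1 the WT difference was -1.11. Between KO and WT denervated muscle the difference was -0.23, with a 95% interval of -0.65 to 0.18 (adjusted p = 0.587). The responses differed by 0.02 ± 0.27 (adjusted p = 0.987).

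Endothelial markers moved with Hey1. Of 14 endothelial markers, all tested and 13 well above background on all 12 arrays, 11 fell with denervation in KO muscle and 11 in WT muscle. Of all genes, 23.5% were called lower in KO and 20.0% in WT muscle. Between KO and WT denervated muscle 0 of the 14 passed, where 0.945% of all genes were called higher and 1.44% lower. The summed level of the 14 markers, as multiples of the 75th percentile, was 33.6 to 43.4 in KO denervated and 65.1 to 66.7 in KO control muscle. It was 28.1 to 40.7 in WT denervated and 59.5 to 66.6 in WT control muscle. Pecam1, an adhesion molecule of endothelium, fell by 1.30 in KO and by 1.37 in WT muscle. In whole muscle, fewer cells of a type and less RNA per cell cannot be told apart, and the part of the endothelial markers in the Hey1 result was not tested.

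Hes1, the other Notch-induced repressor, passed no test. Its probe at chr16:29985644-29985939 (mm8, plus strand) gave -0.21, -1.29 and -1.99 in KO denervated muscle and -1.76, -1.73 and -2.00 in KO control muscle. WT muscle gave -1.84, -1.86 and -0.93 after denervation and -1.95, -2.14 and -2.28 in controls. KO denervated replicate 1 and WT denervated replicate 3 were the highest arrays, and denervated and control arrays overlapped in KO but not in WT muscle. The denervation difference was 0.67 ± 0.38 in KO muscle (limma adjusted p = 0.176) and 0.58 ± 0.38 in WT muscle (adjusted p = 0.258). Without KO denervated replicate 3 the KO difference was 1.08 and passed (adjusted p = 0.0297), and over the other arrays left out it went down to 0.19. Between KO and WT denervated muscle Hes1 differed by 0.38, with a 95% interval of -0.47 to 1.23, and by 1.64 and 0.10 within slides 1 and 4. The difference of the responses was 0.09 ± 0.54 (adjusted p = 0.975).

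Ordered by mean level, the groups of Id1 and of Id3 ran WT denervated, WT control, KO control, KO denervated, and so did those of Atoh8. Of the neighbours in that order, WT denervated and WT control arrays did not overlap for any of the 3 genes, and KO control and WT control arrays overlapped for all 3. Id4 and Hes1 shared another order, KO denervated, WT denervated, KO control, WT control, in which neighbours overlapped except WT denervated and KO control for Id4. Hey1 ran WT control, KO control, WT denervated, KO denervated, with no overlap between KO control and WT denervated arrays.

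**Figure D3:**
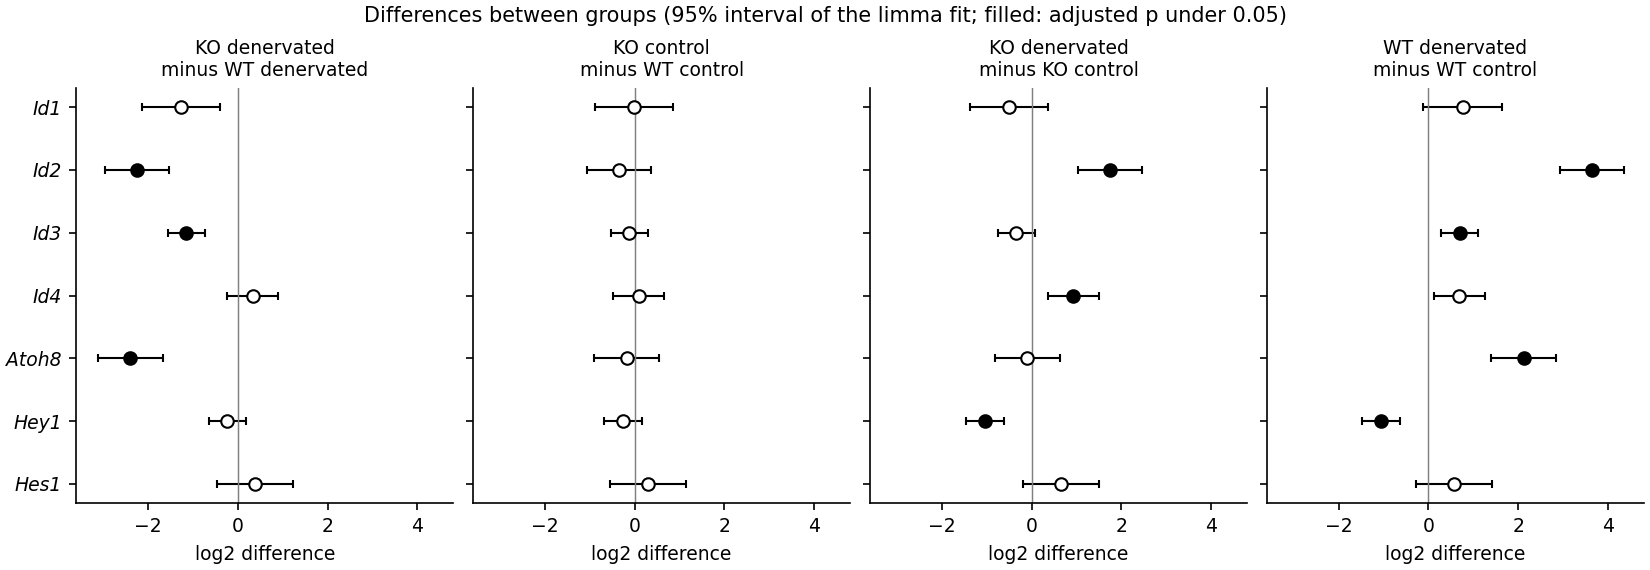
Log2 difference of each gene for KO minus WT in denervated and in control muscle and for denervated minus control in KO and in WT muscle. Circles are limma estimates over 3 arrays per group, lines are 95% intervals, and filled circles have an adjusted p under 0.05. Id2, Id3 and Atoh8 are filled on the negative side between KO and WT denervated muscle, and no gene is filled between the control muscles.

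Counted over the members, 3 of 7 were called lower in KO than in WT denervated muscle, where 1.44% of the 15233 genes were called lower. The members were chosen with earlier results of these data known, so the count beside that share is only a description. No member was called higher there, against 0.945% of all genes. The 3 arrays of each group did not overlap for 4 of the 7, all lower in KO (Id1, Id2, Id3 and Atoh8), where 21.8% of genes did not overlap in either direction. With normexp correction 0 of the 7 were called in that comparison, and 25 of all genes in place of 363. In control muscle 0 of 7 passed limma's test between KO and WT, where 1 gene (0.00656%), Smad4, was called and 612 had an unadjusted p under 0.05; no member had one. The differences there ranged from -0.35 for Id2 to 0.29 for Hes1, and KO and WT arrays overlapped for every member. The 95% interval for Id2 was -1.07 to 0.37, so differences within that range are not excluded.

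For denervation in KO muscle, 2 of 7 members were called higher (Id2 and Id4; 23.4% of all genes were) and 1 lower (Hey1; 23.5% of all genes). The arrays did not overlap for 4 members, against 56.5% of genes. In WT muscle 3 of 7 were called higher (Id2, Id3 and Atoh8; 19.2% of all genes) and 1 lower (Hey1; 20.0% of all genes), and denervated and control arrays did not overlap for 7 of 7, against 52.9% of genes. Denervation thus called a large share of all genes in both genotypes. The interaction called 0 of 7 members with limma and 30 genes in all (0.197%), and Id1, Id2, Id3 and Atoh8 had unadjusted p-values under 0.05. The median difference of the members between KO and WT denervated muscle was -1.15, against -0.03 over all genes tested. For denervation it was -0.09 in KO and 0.70 in WT muscle, against a median of all genes near 0 in both.

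Across the 12 arrays the levels of Id3 and Atoh8 correlated with r = 0.86, those of Id1 and Id3 with r = 0.82 and those of Id2 and Atoh8 with r = 0.80. Id4 and Hey1 ran in opposite directions (r = -0.71). These are descriptions over arrays that share the group differences. Among 11235 genes searched, the pattern closest to Id2 was that of Whrn (r = 0.97), followed by Enpp3 and Noc3l (both r = 0.97). Atoh8 was closest to Pitx3 (r = 0.98), Hspb7 and Dusp13 (both r = 0.96). Id3 was closest to Tmcc1 (r = 0.93), Id4 to Phip (r = 0.97) and Hey1 to Tab2 (r = 0.98), and the best matches of Id1 (Twsg1, r = 0.84) and Hes1 (Prdm2, r = 0.88) were weaker.

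Of 8 tested Smads and feedback inhibitors of BMP signalling, 3 were lower in KO than in WT denervated muscle, as Id2, Id3 and Atoh8 were. The 3 were Smad4 itself, Smad6 and Smad7, of which the last pair block receptor-activated Smads. Smad4 is the deleted gene, so its place in the count follows from the design. Of all genes, 1.44% were called lower there and 0.945% higher. Smad6 differed by -1.17 ± 0.16 (limma adjusted p = 0.00395) and Smad7 by -1.50 ± 0.32 (adjusted p = 0.0358). Smad6 was lost with normexp correction (-0.60, adjusted p = 0.745) and on the 6 arrays of the groups compared alone (adjusted p = 0.0582), and Smad7 under 9 of 22 alternatives. The inhibitors Bambi (0.02, adjusted p = 0.961), Smurf1 (-0.21, adjusted p = 0.538) and Smurf2 (-0.38, adjusted p = 0.322) did not pass there. With denervation, 1 of the 8 rose (Smad1) and 5 fell (Smad4, Smad6, Smad7, Smurf1 and Smurf2) in KO muscle. In WT muscle 1 rose (Smad1) and 3 fell (Smad4, Smad6 and Bambi). Of all genes, 23.4% were called higher and 23.5% lower in KO, and 19.2% and 20.0% in WT muscle. The call of Smad1 was lost under 5 of 22 alternatives in KO and 9 in WT muscle. Smurf1 in KO was lost under 8, Smad4 in WT under 10, Bambi in WT under 4, and Smurf2 in KO with normexp correction. Smad6 fell by 1.32 in KO and by 0.60 in WT muscle, and with normexp correction the differences were -0.62 (adjusted p = 0.0738) in KO and -0.33 (adjusted p = 0.422) in WT muscle. The median over the 8, Smad4 included, was -0.29 between KO and WT denervated muscle.

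Upstream of the members, 9 BMP ligands passed the filter. Of these, 2 rose and 3 fell with denervation in each genotype. Over all genes, 23.4% were called higher and 23.5% lower in KO muscle, and 19.2% and 20.0% in WT muscle. Gdf5, a ligand of the BMP type I receptor Bmpr1b, rose by 5.73 in KO muscle (limma adjusted p = 5.89e-07) and by 5.97 in WT muscle (adjusted p = 5.3e-07; 3.81 in WT with normexp correction). Its close relative Gdf6 was not well above background in controls and was at least 43.9-fold higher in KO and at least 25.0-fold higher in WT denervated muscle (adjusted p = 2.35e-06 in KO and 2.92e-06 in WT). These bounds set the control arrays at the lowest signal well above background. Bmp4, Bmp6 and Bmp7 fell in both genotypes, and with normexp correction Bmp7 was no longer called in either genotype and Bmp6 not in WT muscle. The ligand median was 0.10 in KO and -0.55 in WT muscle. Between KO and WT denervated muscle 0 of 9 differed, where 0.945% of all genes were called higher and 1.44% lower.

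Of 11 BMP receptors and coreceptors, 7 fell with denervation in KO muscle and 7 in WT muscle, with medians of -0.71 and -0.61. Of all genes, 23.5% were called lower in KO and 20.0% in WT muscle. Between KO and WT denervated muscle 0 of 11 differed, where 0.945% of all genes were called higher and 1.44% lower. The type II receptor Acvr2b fell by 3.24 in KO and by 2.37 in WT muscle (-1.80 and -1.09 with normexp correction), and the coreceptor Hjv fell by 1.33 in KO muscle and fell by 1.36 in WT muscle. Eng and Acvrl1, receptors known mainly from endothelium, also fell: in KO muscle Eng fell by 1.48 and Acvrl1 fell by 1.36, alongside the endothelial markers given with Hey1. Among 8 antagonists, Fst, which binds activins and some BMPs, rose by 2.68 in KO and by 2.62 in WT muscle (1.47 in WT with normexp correction), and Chrd rose in both genotypes too, while Chrdl1 rose in KO muscle. The WT call of Chrd was lost under 7 of 22 alternatives, the KO call of Chrdl1 under 3 and the KO call of Chrd with normexp correction; 0 of the 8 antagonists differed between KO and WT denervated muscle.

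In the Notch pathway, which induces Hey1 and Hes1, 2 of 13 genes rose and 3 fell in KO muscle, and 1 rose and 5 fell in WT muscle. Over all genes, 23.4% were called higher and 23.5% lower in KO muscle, and 19.2% and 20.0% in WT muscle. The ligand Dll1 rose by 3.07 in KO and by 2.61 in WT muscle. The endothelial receptor Notch4 fell by 1.27 in KO and by 1.29 in WT muscle, and Dll4 and Nrarp also fell in both; Notch2 rose in KO muscle, and Notch3 and Maml2 fell in WT muscle. Normexp correction ended the calls of Dll4, and turned the Maml2 difference in WT muscle round. Of the 6 tested relatives of Hes1 and Hey1, Hes6, a relative known to inhibit Hes1, rose by 2.65 in KO and by 2.46 in WT muscle, and Helt fell in both, its WT call being lost with normexp correction. No Notch pathway gene of 13 and no relative of 6 passed between KO and WT denervated muscle, where 0.945% of all genes were called higher and 1.44% lower.

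Of the bHLH partners that Id proteins restrain, 6 of 8 rose with denervation in each genotype (Tcf4, Tcf12, Myod1, Myf5, Myog and Myf6), with medians of 1.29 in KO and 0.93 in WT muscle. Over all genes, 23.4% were called higher with denervation in KO muscle and 19.2% in WT muscle. Myog, a driver of muscle differentiation, rose by 3.84 in KO muscle (limma adjusted p = 1.34e-05) and by 4.52 in WT muscle (adjusted p = 5.58e-06). Myf6 rose by 2.36 in KO and by 2.50 in WT muscle. The calls of Tcf12 and Myf5 were lost with normexp correction. Those of Myf5 were also lost with the series matrix, which gave 1.42 in KO and -1.04 in WT muscle. Myf5 was well above background on only 4 of the 12 arrays and passed the filter through the KO denervated group alone. With KO control arrays set at the lowest signal well above background, it was at least 1.79-fold higher in KO denervated muscle. In WT muscle its call rests on signals mostly not well above background. None of the 8 passed between KO and WT denervated muscle. With 0.945% of all genes called higher and 1.44% lower there, a count of 0 in so short a list is near those shares.

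**Figure D4:**
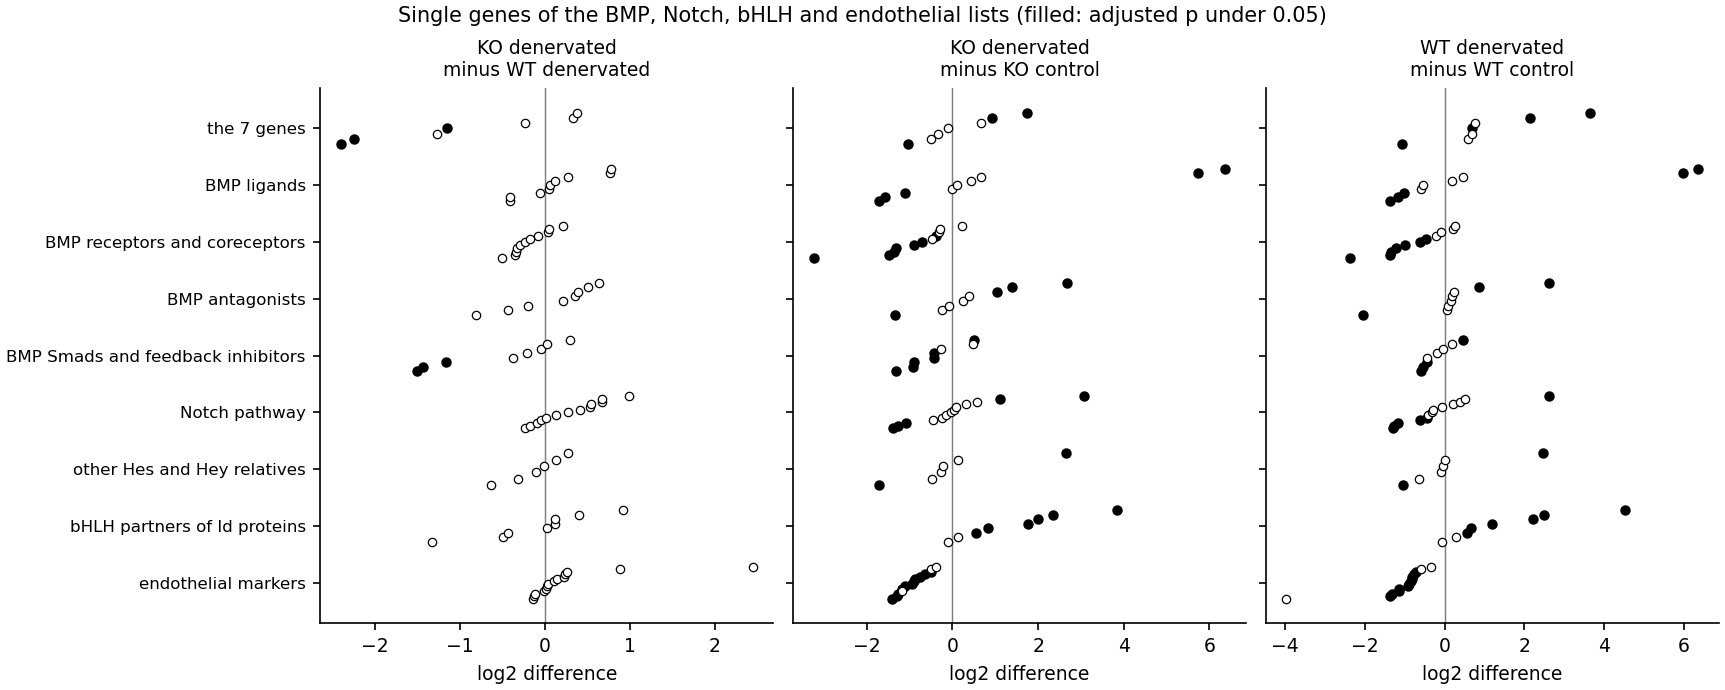
Log2 differences of single genes of the 7 members, the BMP, Notch, Hes and Hey, bHLH and endothelial lists, for KO minus WT in denervated muscle and for denervated minus control in KO and in WT muscle. Each point is a gene and filled points have an adjusted p under 0.05. In the first panel the filled points are 3 of the 7 members together with Smad4, Smad6 and Smad7, and endothelial markers lie mostly to the left in the denervation panels.

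Markers of further cell types were counted for denervation beside the members. Over all genes tested, 23.4% were called higher and 23.5% lower in KO muscle, and 19.2% and 20.0% in WT muscle. Of 10 Schwann cell markers, 6 fell and 1 rose in KO muscle, and 5 fell and 1 rose in WT muscle. Of 9 smooth muscle and pericyte markers, 3 fell in KO and 5 in WT muscle. Among 10 macrophage markers, 4 rose in KO and 1 in WT muscle. Among 10 satellite cell markers 2 rose in each genotype, Myf5 among them, which is near the shares of all genes. Myf5 was well above background on only 4 of the 12 arrays. Of 9 fibroblast markers, 0 were called in KO muscle and 1 fell in WT muscle, and of 12 skeletal muscle markers 6 fell in KO and 1 in WT muscle. None of these lists had a call between KO and WT denervated muscle. Of all genes, 0.945% were called higher and 1.44% lower there, so a count of 0 in so short a list is near those shares. Their part in the denervation results of the members was not tested.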

How the data were processed

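The scanner files, as deposited, give an intensity for each spot, from Feature Extraction 10.7.3.1 per the file headers, while the submitters' processing notes name 10.5.1.1. The processed signal is background-subtracted and detrended intensity, per the file headers, with no normalization between arrays. The deposited series matrix, used as an alternative, holds intensity on a linear scale with medians between 23.9 and 24.2; its centring method is not given in the sources used here.

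Control spots and outlier spots were left out, spots of a probe averaged, and the signal taken as log2 relative to the 75th percentile of its array. Probes well above background on all 3 arrays of at least 1 group were kept (22533), and the brightest probe stood for its gene. Tests were two-sided and used lmFit and eBayes of limma 3.58.1 (R 4.3.3; 4 group means, residual degrees of freedom 8), with Benjamini-Hochberg adjustment within each of 5 comparisons and a threshold of 0.05. The number of arrays limits the precision; with 3 against 3 arrays an exact permutation test reaches p = 0.1 at the lowest. Of the genes tested, 226 had a missing value on an array, and a missing array was left out for that gene.

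Slides are those of the file headers: slide 1 held WT denervated 1, WT control 1 and KO denervated 1; slide 2 WT control 2 and KO control 2; slide 3 WT control 3, KO denervated 3 and KO control 3; slide 4 WT denervated 2 and 3, KO control 1 and KO denervated 2. Per the file headers, slide 4 was scanned on another day than slides 1 to 3. That slide held WT denervated 2 and 3 and no WT control array. Scan day and slide 4 cannot be told apart. Replicate numbers come from the titles. Same-numbered WT denervated and control arrays deviated together (r = 0.30, 0.11 and 0.23), which meets the rule for pairs in WT muscle. The tests given use no block, and the fit with the replicate number as a block, nested in genotype, is an alternative. In KO muscle r was 0.09, 0.02 and 0.17. Between the genotypes, which cannot be pairs, r was 0.20, 0.30 and 0.01 for denervated arrays and 0.07, 0.16 and -0.10 for control arrays. Replicates 1 and 2 of the denervated arrays shared a slide across genotypes, as did replicate 1 of the WT denervated and control arrays. Whether the WT values come from pairs or from slides was not tested.

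Alternatives were quantile and median scaling, normexp correction (offset 50), other probe filters, the mean of a gene's probes, the series matrix, the compared arrays alone, replicate and slide blocks, and leaving out each array. The fit was tested on simulated data. Named genes are the members, Smad4, up to 4 genes of each list with the smallest adjusted p, list genes counted in groups of 5 or fewer or needed to complete a count, and the 3 genes most correlated with each member. One gene that this rule names is not reported here. The members and lists were chosen with earlier results of these data known. Files were read with pandas 2.3.3 and numpy 2.4.6 in Python 3.11.15, and plots drawn with matplotlib 3.10.9.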

Additional observations from a re-analysis of the deposited data

How the results depend on the processing

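The 3 calls between KO and WT denervated muscle (Id2, Id3 and Atoh8) kept their direction under every alternative and lost the threshold with normexp correction, which left 0 members called. The denervation calls of Id2 and Hey1, and the WT call of Atoh8, held under all 22 alternatives. Normexp moved the genes called to 2742 (from 7142) for denervation in KO, 1922 (from 5973) in WT, 25 (from 363) between KO and WT denervated muscle, and 0 for KO against WT control muscle and for the interaction. KO against WT denervated muscle gave 213 without a filter, 130 on the compared arrays alone and 158 to 347 with an array left out. The interaction (30) gave 5 without a filter, 12 with probes above background on all 12 arrays, 1 with a slide block and 2 to 51 with an array left out. KO against WT control muscle (1) gave 5 with median scaling, the series matrix or quantile scaling, 4 with probe means, 2 with the strict filter, 0 without a filter, on the compared arrays or with a slide block, and 0 to 4 with an array left out. Array omission gave 6037 to 7217 and 4807 to 6132 genes for denervation in KO and WT, and 3 to 4 and 3 to 5 members; it gave 3 to 4 members between KO and WT denervated muscle. With a replicate block nested in genotype the interaction called 11 genes, and with 1 shared by the genotypes KO against WT control muscle called 0; among the members these blocks changed only the WT call of Id1.

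Sign changes occurred in member differences that passed no test. With an array left out, the KO minus WT control difference of Id1 ranged from -0.53 to 0.32 (0.015 with probe means), that of Atoh8 from -0.33 to 0.037 and that of Id4 from -0.090 to 0.25 (-0.017 with normexp). The KO denervation difference of Id1 ranged from -0.83 to 0.021, and that of Atoh8 from -0.37 to 0.34 (0.034 with a slide block). Hes1 ranged from -0.10 to 0.80 between KO and WT denervated muscle and from -0.39 to 0.50 in the interaction (below 0 when any of 5 arrays was left out). The Hey1 interaction ranged from -0.18 to 0.17 (-0.028 with median scaling, -0.00468 with the series matrix), and that of Id4 from -0.013 to 0.42. In WT denervation, Maml2 was 0.075 with normexp and Myf5 -1.04 with the series matrix. The cause was not tested. Among the called member differences, normexp moved those of Atoh8 by the largest factor. That correction adds an offset of 50. Atoh8 averaged 363 intensity units in WT denervated muscle and between 66.5 and 91.9 in the other groups. The part of the offset was not tested.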
